A study of Mus musculus with 13 samples.

Results

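Bnc1 and Bnc2 are the basonuclins of the mouse, and they are described here as 2 genes of the 35976 symbols counted in E14.5 male primordial germ cells (PGCs), from which sperm later derive. They were taken by name. Bnc2 was chosen by its measured levels, which fall in a graded way over the Tet1 genotypes, so its differences between genotypes are given as a description, with no test. Bnc1 was included as the related gene, and the rule did not use its values, though earlier results of these data were known. All embryos carried an Oct4-GFP reporter, a fluorescent protein driven by a gene active in germ cells, by which the cells were sorted. The mutant groups were KO, a Tet1 knockout, HxD, a Tet1 allele known for a catalytically dead protein, and V, a Tet1 allele known for a protein that stops oxidation at 5-hydroxymethylcytosine. They were set against WT, the wild type, with 3 libraries for each of the 4 genotypes. The labels do not give the part of Tet1 removed in KO, the strain, the number of embryos behind a library or whether replicates are separate animals. The p-values therefore reflect spread among these libraries alone, and that spread may be technical.

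Basonuclins are nuclear proteins with paired C2H2 zinc fingers. Basonuclin 1 was first known from keratinocytes, and it is also known from the germ cells of testis and ovary, where it binds promoters of ribosomal RNA genes. Basonuclin 2 is the more widely expressed of the pair, with prominent expression in mesenchymal cells. In mice it is known to be needed for the mitotic arrest of fetal male germ cells and for holding back meiosis in them. TET1 oxidises 5-methylcytosine in DNA, a step towards removing methylation from CG dinucleotides.

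In GENCODE M21 on GRCm38, Bnc1 (ENSMUSG00000025105.9) lies on the minus strand of chromosome 7 from 81966672 to 81992292 and has 1 annotated transcript of 4646 bases in 5 exons. Bnc2 (ENSMUSG00000028487.18) lies on the minus strand of chromosome 4 from 84275095 to 84675275. It spans 400.0 kb and has 22 annotated transcripts, 12 of which begin within 500 bases of the gene's start. The deposited counts are summed per gene, so the Bnc2 isoforms cannot be told apart. The RefSeq promoter windows (GRCm38.p6, 250 bases before to 50 after a start) are shown because CG dinucleotides, in capitals, are the sites on which TET1 acts. Both strands read the same for this motif, and overlapping copies do not occur.
Bnc1, chr7:81992250-81992549, minus strand: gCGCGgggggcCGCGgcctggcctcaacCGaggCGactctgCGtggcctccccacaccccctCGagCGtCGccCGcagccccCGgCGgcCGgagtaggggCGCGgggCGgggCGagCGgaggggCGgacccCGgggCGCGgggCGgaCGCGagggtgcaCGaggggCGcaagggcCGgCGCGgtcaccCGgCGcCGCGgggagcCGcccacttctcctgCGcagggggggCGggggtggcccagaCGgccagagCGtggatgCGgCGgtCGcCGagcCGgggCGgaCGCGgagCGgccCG
Bnc2, chr4:84610148-84610447, minus strand: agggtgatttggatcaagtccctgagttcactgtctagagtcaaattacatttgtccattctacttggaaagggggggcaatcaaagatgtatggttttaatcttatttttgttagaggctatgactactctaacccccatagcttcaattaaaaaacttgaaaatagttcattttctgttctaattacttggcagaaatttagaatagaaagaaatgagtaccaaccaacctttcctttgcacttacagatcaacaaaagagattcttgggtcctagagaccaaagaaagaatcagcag
The Bnc1 window held 50 CG dinucleotides, and 0.855% of 32851 RefSeq windows of this length held as many or more. The Bnc2 window held 0, as did 5.43% of all windows, against a median of 7. That window is set at a RefSeq start 65.1 kb inside the GENCODE gene, where 0 GENCODE transcripts begin, so it does not show the start that most annotated Bnc2 transcripts use. These letters are a description only, as DNA methylation was not measured in these libraries.

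Library totals ran from 13584484 to 29641963 counts. Tet1 itself had 213, 201 and 225 CPM in the 3 KO libraries, 536 to 735 CPM in HxD, 364 to 625 CPM in V and 589 to 639 CPM in WT. CPM are counts scaled to a common library size, after TMM scaling. KO Tet1 was lower than WT by a log2 fold change of -1.51 (SE 0.17, edgeR adjusted p = 1.41e-05), in 3 of 3 libraries. WT 3 had the fewest genes with a count, 11529, and V 3 the lowest total, and results were also computed without both.

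Bnc2 was lowest in KO and highest on average in WT. The KO libraries held 19.9, 38.5 and 23.2 CPM of Bnc2, the HxD libraries 51.4, 52.3 and 49.7 CPM, the V libraries 120, 26.7 and 117 CPM, and the WT libraries 195, 66.1 and 107 CPM. All 3 KO and all 3 HxD libraries lay below the lowest WT library, WT 2, while the V libraries overlapped both WT and KO. V 2 fell among the KO values, and V 1 and V 3 fell among the WT values. Means were 27.2 ± 9.96 CPM in KO, 51.1 ± 1.33 CPM in HxD, 87.8 ± 52.9 CPM in V and 123 ± 66.1 CPM in WT (SD, n = 3 each). In bulk samples fewer cells expressing the gene and less RNA per cell cannot be told apart.

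**Figure D1:**
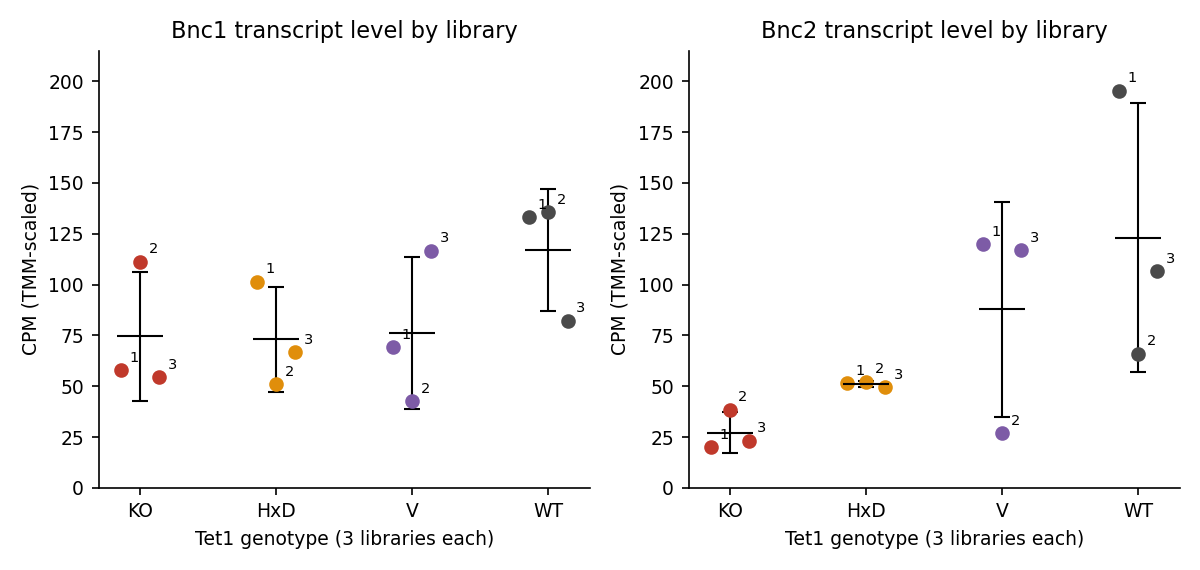
Bnc1 (left) and Bnc2 (right) in CPM by Tet1 genotype. Points are single libraries with their replicate number, and bars are the mean with the SD of 3 libraries. The Bnc2 points of KO (19.9 to 38.5 CPM) and HxD (49.7 to 52.3 CPM) sit below all WT points (66.1 to 195 CPM), and V 2 lies apart from V 1 and V 3.

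As log2 fold changes of the edgeR fit, Bnc2 stood at -2.17 (SE 0.39) in KO, -1.26 (SE 0.38) in HxD and -0.48 (SE 0.37) in V relative to WT. These correspond to levels 4.51, 2.40 and 1.40 times lower than in WT. The 3 values share the same WT libraries. Between mutants, HxD exceeded KO by 0.91 (SE 0.38), V exceeded KO by 1.69 (SE 0.39) and V exceeded HxD by 0.78 (SE 0.38). The KO and HxD libraries did not overlap, with every HxD library above every KO library, whereas V overlapped KO through V 2 and overlapped HxD. For scale, 8.15% of the 14702 genes tested had all KO libraries below all WT libraries, and 7.22% had all HxD libraries below all WT libraries. All HxD libraries lay above all KO libraries for 3.69% of genes. Group means ran upwards in the order KO, HxD, V and WT in 687 genes, or 4.67% of those tested. Since Bnc2 was chosen for this pattern, nothing is read from these shares.

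The order of KO and HxD did not depend on any single library of the 2 genotypes, with HxD over KO between 0.73 and 1.25 when each was left out. Bnc2 was chosen for this order in the same libraries, so its stability is a description and no support for the pattern. The place of V did. Without WT replicate 1 the V value relative to WT was 0.02 (SE 0.36), and without V replicate 2 it was -0.05. WT 1, with 195 CPM, was the highest Bnc2 library of all. Without it the KO and HxD values relative to WT were -1.67 and -0.76.

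**Figure D2:**
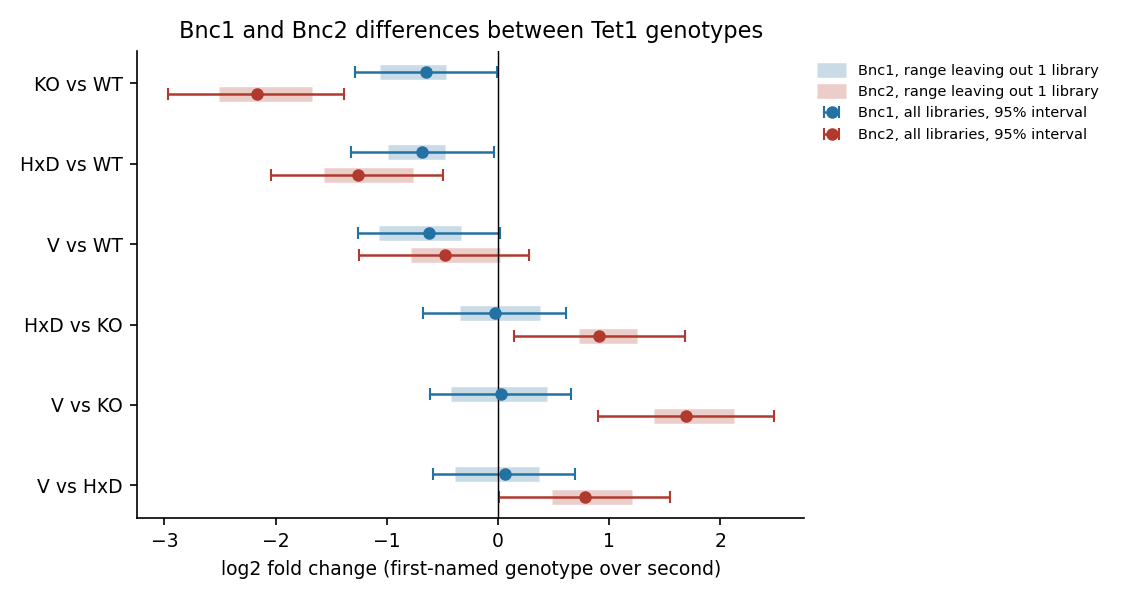
Log2 fold changes of Bnc1 and Bnc2 in the 6 genotype comparisons, the first-named genotype over the second. Points with bars are the edgeR estimate and its 95% interval, and pale bands are the range when each library of the 2 genotypes is left out in turn. The Bnc2 values run from -2.17 in KO vs WT to 1.69 in V vs KO, and the Bnc1 values between mutants lie within 0.06 of 0.

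Spread between libraries of a genotype was wide for Bnc2 and far above counting error in KO, V and WT, but not in HxD. The counts behind these levels ran from 450 in KO 1 to 3899 in WT 1, so the counting error was at most 4.71%. The highest library exceeded the lowest by 4.48 times in V, by 2.96 times in WT and by 1.94 times in KO, against 1.05 times in HxD. The HxD SD was 2.59% of its mean, where the counting errors of its libraries were 2.58%, 2.86% and 3.61%. On the log2(CPM + 1) scale the SD within genotypes was 0.76. Among 6201 tested genes averaging 20 to 200 CPM the median SD was 0.34, and 97.4% had a smaller SD than Bnc2. Bnc1 had an SD of 0.56, larger than that of 88.2% of the same genes.

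Bnc1 was lower on average in each mutant than in WT and did not pass the test in any comparison. The KO libraries held 58.0, 111 and 54.4 CPM of Bnc1, the HxD libraries 101, 50.9 and 66.7 CPM, the V libraries 69.1, 42.7 and 117 CPM, and the WT libraries 133, 136 and 82.2 CPM. Each mutant overlapped WT only through its highest library, which lay above WT 3, so 8 of 9 pairs of a mutant and a WT library had the mutant lower. Means were 74.6 ± 31.8 CPM in KO, 73.0 ± 25.9 CPM in HxD, 76.1 ± 37.5 CPM in V and 117 ± 30.1 CPM in WT (SD, n = 3 each). The log2 fold change relative to WT was -0.65 in KO (SE 0.31, edgeR adjusted p = 0.592) and -0.68 in HxD (SE 0.31, edgeR adjusted p = 0.586). In V it was -0.62 (SE 0.31, edgeR adjusted p = 0.821). Unadjusted p-values were 0.0466, 0.0381 and 0.0564 in the same edgeR fit. DESeq2 called none of the 3 either, with adjusted p of 0.602, 0.580 and 0.793. The intervals ran from -1.29 to -0.01 in KO, -1.32 to -0.04 in HxD and -1.26 to 0.02 in V. EdgeR called 0.218% of the 14702 genes tested in KO, 0.034% in HxD and 0% in V at an adjusted p under 0.05, while 8.3%, 8.24% and 6.05% had an unadjusted p under 0.05. In V the 0 calls stand beside 890 genes at that unadjusted level and 83 called by DESeq2.

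Without WT 3 and V 3 the Bnc1 value relative to WT was -1.27 in V (edgeR adjusted p = 0.414). The adjusted p stayed at 0.135 or above in every alternative run for Bnc1 in KO, 0.198 in HxD and 0.313 in V. Between mutants the Bnc1 differences were near 0. HxD over KO was -0.03 (95% interval -0.67 to 0.61), V over KO was 0.03 (-0.61 to 0.66) and V over HxD was 0.06 (-0.58 to 0.69), each with an edgeR adjusted p of 1, where edgeR called 0.0068%, 0.0204% and 0% of all genes tested. Each of these signs turned in some of the fits that left out a library, and the intervals do not show that the mutants are alike.

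Per kilobase of annotated exon, Bnc1 stood at 16.1 ± 6.85 CPM per kb in KO, 15.7 ± 5.56 in HxD, 16.4 ± 8.07 in V and 25.2 ± 6.48 in WT (SD, n = 3 each). Bnc2 stood at 3.33 ± 1.22 CPM per kb in KO, 6.26 ± 0.162 in HxD, 10.7 ± 6.47 in V and 15 ± 8.09 in WT on the same scale. With these lengths the mean Bnc1 level in WT was above that of 82.8% of 13511 tested genes of known length, and the mean Bnc2 level above that of 72.2%. In KO the same shares were 73.8% for Bnc1 and 40.7% for Bnc2. The order of the genes in WT depends on the Bnc2 length used, since its exons together cover 8174 bases and its longest coding transcript 4133. With the longest coding transcript as its length, Bnc2 had 29.7 CPM per kb in WT, above Bnc1, but still 6.58 in KO, below Bnc1.

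The ratio of Bnc2 to Bnc1 counts does not depend on library scaling. It was 0.342, 0.346 and 0.426 in KO, 0.507, 1.03 and 0.744 in HxD, 1.74, 0.627 and 1 in V, and 1.47, 0.488 and 1.30 in WT. The 3 KO libraries had the lowest ratios of all 12, and the other genotypes overlapped one another. The ratio carries the choice of Bnc2 for its low KO values, so nothing is read from the place of KO. WT 2 was the lowest WT library for this ratio as it was for Bnc2, while its Bnc1 level was the highest of all.

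**Figure D3:**
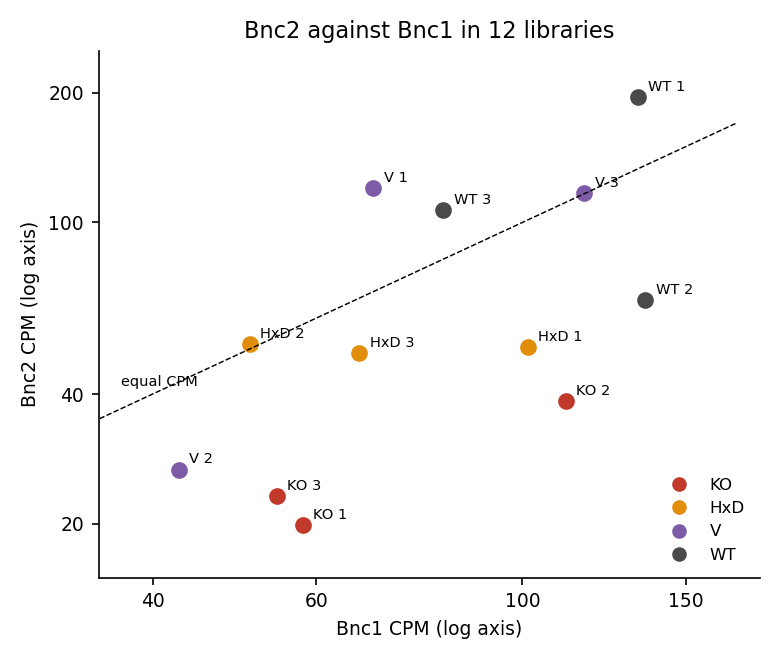
Bnc2 against Bnc1 in CPM, both axes logarithmic, 1 point per library coloured by Tet1 genotype. The dashed line marks equal CPM of both genes. The KO libraries lie farthest below the line, with Bnc2 to Bnc1 count ratios of 0.342 to 0.426.

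Across the 12 libraries Bnc1 and Bnc2 had a Pearson correlation of 0.62 on the log2(CPM + 1) scale and a Spearman's rho of 0.60, given as a description with no test because Bnc2 was chosen on these values. Leaving out WT 1 and WT 2, the libraries farthest from the median of Bnc1, gave r = 0.53, and deviations from the genotype means gave r = 0.59. The points share genotype and library scaling. Bnc1 ranked 319th of 9620 genes by its correlation with Bnc2.

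Marker genes of other gonadal cells were set beside the basonuclins, because Bnc2 is known from mesenchyme and Bnc1 from surface epithelia. Germ cell markers (14 genes) summed to 5000 to 5330 CPM in KO, 4990 to 5790 in HxD, 5550 to 5870 in V and 6280 to 6410 in WT. The 3 WT libraries were above all 9 mutant libraries for this sum, a separation whose share over all genes was not computed. The members went both ways, with 6 of 14 positive in KO, 7 in HxD and 6 in V. Their medians were -0.06, -0.01 and -0.03. The sum leans on its most abundant member, Dazl, with a mean of 1090 CPM over libraries, and was not computed without it. EdgeR called 2 members lower in KO and 2 in HxD, Dazl and Mael in each, and 0 in V. Of all genes tested it called 0.218%, 0.034% and 0%. Dazl, an RNA-binding regulator of germ cells, had 849 ± 193 CPM in KO, 793 ± 192 in HxD, 953 ± 255 in V and 1750 ± 150 in WT (SD, n = 3 each). Its log2 fold changes were -1.05 in KO (edgeR adjusted p = 0.00943) and -1.15 in HxD (edgeR adjusted p = 0.00935). Those of Mael were -2.45 in KO (edgeR adjusted p = 0.0018) and -2.89 in HxD (edgeR adjusted p = 0.000567). Mean Pou5f1, the gene of the pluripotency factor Oct4, was 357 CPM in KO, 464 in HxD and 516 in V, against 316 in WT. The part of the germ cell sum in the Bnc2 levels was not tested. The 20 interstitial markers summed to 12.9 to 48.0 CPM in KO, 17.6 to 40.4 in HxD, 9.45 to 48.6 in V and 10.2 to 42.7 in WT. In KO the sum exceeded Bnc2 in KO 1 (29.5 against 19.9 CPM) and KO 2 (48.0 against 38.5 CPM). It was below Bnc2 in KO 3 and in each HxD, V and WT library. The median sums were 29.5 CPM in KO, 34.4 in HxD, 13.8 in V and 26.1 in WT. Bnc2 was chosen on its low KO values, so nothing is read from this contrast. The part of interstitial RNA in the Bnc2 levels was not tested. Its members Lum and Mgp had 0 counts in all 12 libraries, and Dcn and Postn in 11. The highest members were Col1a2, a fibrillar collagen gene, with a mean of 4.35 CPM over libraries, and Gli1, a hedgehog target, with 4.14 CPM, which reached 24.9 CPM in WT 1. Bnc2 correlated with the interstitial sum at r = 0.22 (rho 0.32), at 0.26 without WT 3 and V 2, and at 0.55 within genotypes, again with no test.

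Sertoli cell markers (12 genes) summed to 50.5 to 96.9 CPM in KO, 20.7 to 62.5 in HxD, 27.5 to 516 in V and 28.1 to 181 in WT. The V value of 516 CPM came from V 2, the V library with the least Bnc2, and the WT value of 181 CPM from WT 3. Amh, the anti-Muellerian hormone gene, stood at 216 CPM in V 2. Bnc2 correlated with this sum at r = -0.34 (rho -0.42), at -0.46 without WT 3 and V 2, and at -0.57 within genotypes. The part of Sertoli RNA in the V 2 value was not tested. The 14 mesothelial markers summed to 93.9 to 135 CPM in KO, 72.0 to 103 in HxD, 68.4 to 91.3 in V and 83.9 to 94.5 in WT. Upk3b and Upk1b, uroplakin genes of that epithelium, had 0 counts in all 12 libraries, and Msln in 11. Other members were detected in every library, among them Lrrn4 with a mean of 43.6 CPM (25.4 to 63.6), Krt18 with 14.9 CPM, Aldh1a2 with 9.53 CPM and Krt8 with 5.71 CPM. The part of mesothelial RNA in the Bnc1 levels was not tested. Bnc1 correlated with the mesothelial sum at r = 0.22 (rho 0.15, permutation p = 0.489 and 0.653, adjusted over 4 correlations 0.492 and 0.653), at -0.01 without V 1 and KO 2, and at 0.39 within genotypes. The remaining lists summed to at most 31.4 CPM for Leydig (7 genes), 35.4 for macrophage (10 genes, in V 2) and 22.9 for erythroid markers (9 genes). The 9 endothelial markers summed to 204 to 302 CPM in KO, 187 to 296 in HxD, 169 to 190 in V and 192 to 245 in WT. Pecam1, an adhesion molecule gene, made up most of that sum with a mean of 185 CPM over libraries. Cldn5 averaged 15.6 CPM, Eng 12.3 CPM and Tek, the next highest, 2.47 CPM. Emcn had 0 counts in all 12 libraries, and Esam in 9 of 12. The sum is therefore mostly a reading of 1 gene.

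**Figure D4:**
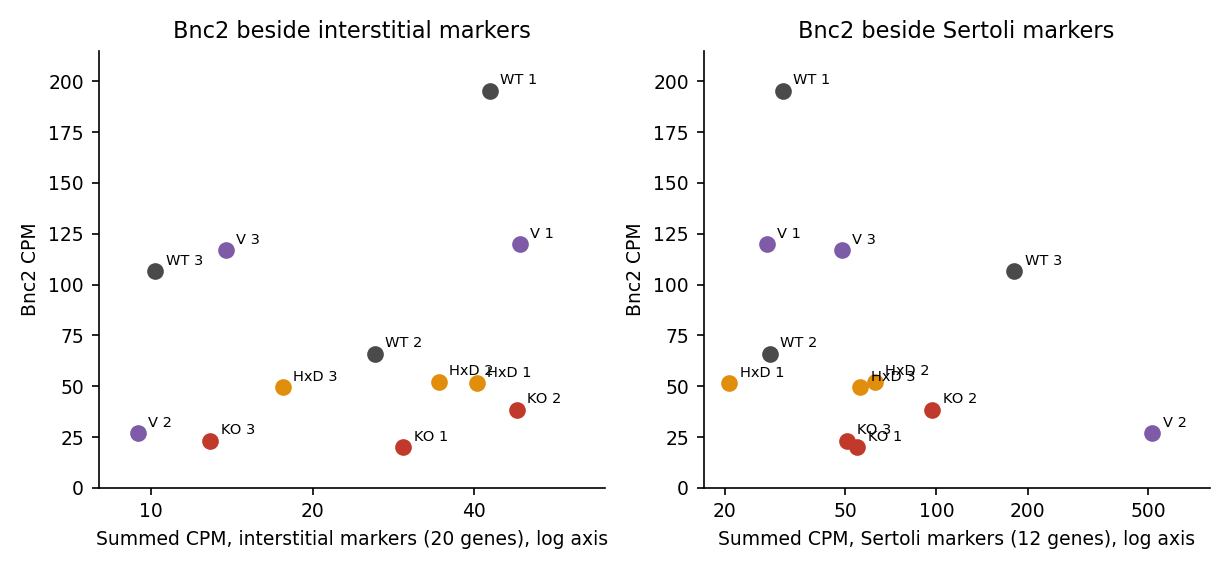
Bnc2 in CPM against the summed CPM of interstitial markers (left) and Sertoli markers (right), with a logarithmic horizontal axis and 1 point per library, KO in red, HxD in orange, V in purple and WT in grey. Libraries of low Bnc2 in KO span 12.9 to 48.0 CPM of interstitial markers, and V 2 stands out with 516 CPM of Sertoli markers.

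Genes of the processes in which basonuclins are known to act were followed as lists. Among 28 tested genes of G1 arrest and male germ cell fate, edgeR called 0 in KO, 0 in HxD and 0 in V relative to WT. At an unadjusted p under 0.05 there were 4, 6 and 2, where 8.3%, 8.24% and 6.05% of all genes tested were. By direction these were 1 higher and 3 lower in KO, 4 higher and 2 lower in HxD, and 1 higher and 1 lower in V. DESeq2 called 1 in each comparison, Rb1, among 233, 225 and 83 genes it called in all. The medians were 0.04 in KO, -0.05 in HxD and 0.10 in V, against 0.00, -0.02 and 0.01 over all genes tested. The list mixes genes that restrain the cell cycle with genes of proliferation, so its medians cannot show whether arrest shifted. The most abundant members were Mki67, a proliferation marker, and Lefty2, an inhibitor of Nodal signalling. Mki67 had 728 ± 93.1 CPM in KO, 823 ± 75.6 in HxD, 847 ± 162 in V and 831 ± 84.2 in WT (SD, n = 3 each). Lefty2 had 638 ± 45.2 CPM in KO, 587 ± 195 in HxD, 530 ± 59.0 in V and 553 ± 35 in WT (SD, n = 3 each).

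Rb1, the retinoblastoma gene that restrains entry into the cell cycle, was picked out after its values were seen. It had 69.7, 70.4 and 80.6 CPM in KO, 78.2, 64.7 and 56.7 CPM in HxD, and 46.1, 47.5 and 61.6 CPM in V, against 130, 111 and 116 CPM in WT. All 9 mutant libraries lay below all 3 WT libraries. By genotype, all KO libraries lay below all WT libraries for 8.15% of genes tested, all HxD for 7.22% and all V for 6.06%. The share of genes with all 9 below WT was not computed. The log2 fold change of Rb1 was -0.69 in KO (SE 0.23, edgeR adjusted p = 0.289), -0.84 in HxD (SE 0.23, edgeR adjusted p = 0.256) and -1.20 in V (SE 0.23, edgeR adjusted p = 0.171). DESeq2 gave adjusted p of 0.0391, 0.00586 and 3e-06 for the same comparisons. EdgeR called Rb1 in V with no filter (adjusted p = 0.00566) and with the replicate block (adjusted p = 0.0198), and when any KO or HxD library or WT replicate 2 was left out. Its lowest mean was in V, at 51.7 CPM.

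Of 25 tested genes of meiotic entry and early prophase, edgeR called 1 lower in KO, where 0.15% of all genes tested were called lower, and 0 in HxD and in V. At an unadjusted p under 0.05, 5 were lower in KO, 6 in HxD and 3 in V, with 0 higher in each, where 8.3%, 8.24% and 6.05% of all genes tested were in either direction. DESeq2 called 2 in KO, 1 in HxD and 0 in V, among 233, 225 and 83 genes in all. Negative values were held by 20 of 25 in KO, 22 in HxD and 20 in V, with medians of -1.01, -0.53 and -0.55. The called gene was Smc1b, a meiotic cohesin gene, with 163 ± 16.2 CPM in KO and 329 ± 38.1 CPM in WT (SD, n = 3 each, log2 fold change -1.01, SE 0.22). Its edgeR adjusted p was 0.0438. The call was lost with the stricter filter, when WT 1, WT 3 or KO 3 was left out, and when both WT 3 and V 3 were. RLE scaling, DESeq2, no filter, the replicate block and the fit of 2 genotypes kept it.

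The spermatogonial list had 22 tested genes and also took in factors of pluripotency and of earlier germ cells, such as Pou5f1. EdgeR called 1 of the 22 lower in KO, where 0.15% of all genes tested were, and 0 in HxD and in V. The medians were -0.23, -0.17 and -0.20 over members that went both ways, with 7 positive in KO, 8 in HxD and 4 in V. At an unadjusted p under 0.05 there were 6 in KO, 7 in HxD and 5 in V, against 8.3%, 8.24% and 6.05% of all genes tested. DESeq2 called 2, 1 and 1 among its 233, 225 and 83 genes. They were Uchl1 and Egr4 in KO, both lower, and Pou5f1 in HxD and in V, higher. For Egr4 the log2 fold change was -4.81 (DESeq2 adjusted p = 0.0381). The gene called by edgeR was Uchl1, which encodes a deubiquitinase and marks spermatogonia. It had 42.2 ± 13.0 CPM in KO, 93.6 ± 3.42 CPM in HxD, 142 ± 73.7 CPM in V and 159 ± 32.9 CPM in WT (SD, n = 3 each). In KO the log2 fold change was -1.92 (SE 0.28, edgeR adjusted p = 0.000817). For the RNA polymerase I machinery, 19 genes were tested, and edgeR and DESeq2 each called 0 in all 3 comparisons. At an unadjusted p under 0.05 there were 0 in KO, 1 in HxD and 3 in V, beside the same shares of all genes, and the medians were -0.06, 0.08 and -0.02. Its most abundant members were Ncl, the nucleolin gene, with 2820 ± 118 CPM in KO, 2970 ± 386 in HxD, 2770 ± 288 in V and 3070 ± 72.4 in WT (SD, n = 3 each), and Npm1. Npm1, the nucleophosmin gene, had 1860 ± 44.0 CPM in KO, 1900 ± 269 in HxD, 1910 ± 102 in V and 2000 ± 86.5 in WT (SD, n = 3 each).

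**Figure D5:**
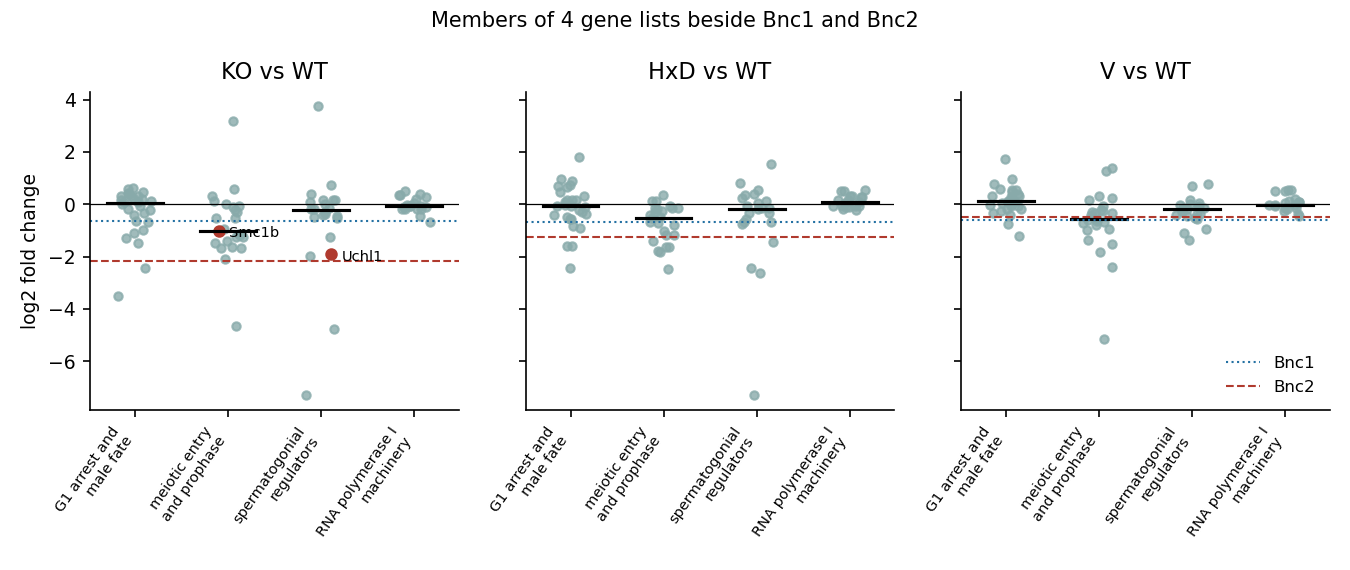
Log2 fold changes of the tested members of 4 gene lists in KO, HxD and V relative to WT. Each point is a gene, red where edgeR called it, bars are list medians, and the dotted and dashed lines are Bnc1 and Bnc2. Smc1b and Uchl1 in KO are the called genes, and the meiotic list has the lowest median in KO, at -1.01. Several points far from 0 are genes of very low count, but Egr4, at -4.77 in KO, reached 24.7 CPM in WT 1.

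The genes most like Bnc2 over the 12 libraries, by Pearson correlation of log2(CPM + 1) among 9620 genes averaging at least 5 CPM, were Ece1 (0.95), Egr4 (0.94), Lrrfip1 (0.88), Tex15 (0.88) and Rasd2 (0.87). Ece1, the endothelin-converting enzyme gene, had 5.94 ± 4.37 CPM in KO, 8.15 ± 1.65 in HxD, 16.5 ± 9.42 in V and 23.9 ± 12.8 in WT (SD, n = 3 each). Egr4, an early growth response transcription factor gene needed for male fertility in mice, held 0, 1.5 and 0 CPM in KO, 1.37, 1.28 and 5.04 CPM in HxD, 10, 1.04 and 5.06 CPM in V, and 24.7, 5.68 and 10.9 CPM in WT. As with Bnc2, V 2 was its lowest V library, and WT 1 its highest of all. Egr4 was picked by its correlation with Bnc2 over these libraries, so this shared order follows from the choice. Tex15, a germ cell gene of the silencing of transposons, had 95.4 ± 4.01 CPM in KO, 112 ± 20 in HxD, 130 ± 40.7 in V and 137 ± 34.8 in WT (SD, n = 3 each).

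The genes running most against Bnc2 were Ywhag (-0.97), a 14-3-3 protein gene, Hk1 (-0.96), a hexokinase gene of glycolysis, and Col18a1 (-0.95), a basement membrane collagen gene. Ywhag had 469 ± 28.1 CPM in KO, 426 ± 17.3 in HxD, 390 ± 56.6 in V and 374 ± 44.5 in WT (SD, n = 3 each). Hk1 had 122 ± 61.1 CPM in KO, 78.9 ± 7.52 in HxD, 63.0 ± 45.9 in V and 38.9 ± 22.9 in WT (SD, n = 3 each). Col18a1 had 405 ± 42.6 CPM in KO, 288 ± 49.7 in HxD, 275 ± 108 in V and 202 ± 64.6 in WT (SD, n = 3 each). These are the extremes of 9620 genes over 12 libraries that share genotype and scaling, given as a description. By Spearman's rho, 2 of the 5 most similar genes stayed among the first 5.

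For Bnc1 the most similar genes were Pcbp3 (0.90), an RNA-binding protein gene, Sycp1 (0.89), a synaptonemal complex gene, Wnt3 (0.86), a signalling ligand gene, Col6a3 (0.83) and Rab6b (0.82). The least similar were Aplp2 (-0.87), Pik3c2b (-0.84) and Pola2 (-0.83), a DNA polymerase alpha subunit gene. Sycp1 held 20.4, 37.9 and 21.8 CPM in KO, 32.8, 15.4 and 23.9 CPM in HxD, and 37.4, 15.2 and 47.4 CPM in V, against 137, 75.5 and 45.2 CPM in WT. In each mutant its highest library was the one with the most Bnc1. In WT it was highest in WT 1, whereas Bnc1 was highest in WT 2. Sycp1 was picked by its correlation with Bnc1, so nothing is read from this likeness. Its log2 fold change was -1.69 in KO (SE 0.41, edgeR adjusted p = 0.0837), -1.84 in HxD (SE 0.41, edgeR adjusted p = 0.132) and -1.37 in V (SE 0.41, edgeR adjusted p = 0.551). The call depends on the processing. DESeq2 called Sycp1 in KO (adjusted p = 0.0379) and HxD (adjusted p = 0.019), as did edgeR with the replicate block (adjusted p = 0.0114 and 0.00291). With no filter edgeR called it in KO, HxD and V (adjusted p = 0.000491, 0.000212 and 0.0453). When 1 of the 12 libraries was left out, it was called in 9 of 12 fits in KO and 8 of 12 in HxD. By Spearman's rho it ranked 1st of all genes, at 0.95.

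Neighbouring genes were read as values. The protein-coding genes on either side of Bnc2 are Cntln, a centrosomal protein gene 209 kb away, and Ccdc171, 410 kb away in GENCODE M21. Cntln had 37.2 ± 7.93 CPM in KO, 43.7 ± 2.12 in HxD, 36.8 ± 1.40 in V and 40.7 ± 10.3 in WT (SD, n = 3 each), with log2 fold changes of -0.13, 0.10 and -0.15 relative to WT and an edgeR adjusted p of 1 in each. Ccdc171 had 7.92 ± 4.65 CPM in KO, 8.63 ± 10.5 in HxD, 10.8 ± 1.52 in V and 12.1 ± 3.39 in WT (SD, n = 3 each), with means in the same order as those of Bnc2. Its log2 fold changes were -0.61, -0.48 and -0.16 (edgeR adjusted p = 0.994, 0.988 and 1). Beside Bnc1 lies Hdgfl3, counted under its older symbol Hdgfrp3, 32.2 kb away. It had 39.0 ± 6.83 CPM in KO, 31.7 ± 14 in HxD, 57.9 ± 29.5 in V and 74.5 ± 18 in WT (SD, n = 3 each). Its log2 fold changes were -0.93 (SE 0.35, edgeR adjusted p = 0.396), -1.23 (SE 0.35, edgeR adjusted p = 0.303) and -0.36 (SE 0.34, edgeR adjusted p = 1) in KO, HxD and V. On the other side, 182 kb away, Sh3gl3 had 4.37 ± 0.64 CPM in KO, 14.3 ± 11.9 in HxD, 5.39 ± 3.12 in V and 8.48 ± 3.03 in WT (SD, n = 3 each). Its log2 fold changes were -0.96, 0.75 and -0.65 (edgeR adjusted p = 0.938, 0.954 and 1). The protein-coding neighbours were chosen after the nearest annotated genes were found to be a pseudogene and noncoding RNAs with no counts or no row in the table. A pseudogene on the plus strand, 4833418N17Rik, overlaps the start of Bnc1, and its reads could not be told from those of Bnc1 if the counting ignored strand. Another annotated gene, Gm12421, overlaps Bnc2 from 84428818 to 84429124 and has no row among the counts.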

How the data were processed

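Per the labels' protocols, RNA was taken from 5000 sorted cells and mRNA libraries were made with oligo-dT beads and a NEB Ultra II kit. The authors deposited raw counts, 1 row per gene symbol. The submitters' processing notes name featureCounts 2.0.3, SAMtools 1.9, STAR 2.7.10b, Trim Galore 0.6.7 and FastQC, and the builds GRCm39 and mm10 are named without a role. No annotation or strand setting is given in the sources used here. Of the columns, 12 carry a sample's name, and 1 further column was not used. A further WT sample in the labels was not analysed here.

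The table's 14702 genes passing edgeR's default expression filter were fitted with the quasi-likelihood test of edgeR 4.0.16 (R 4.3.3, TMM scaling, genotype as the only term, 12 libraries), with two-sided p-values adjusted by Benjamini-Hochberg across every gene tested and a threshold of 0.05. Alternatives were RLE scaling, DESeq2 1.42.0, no filter, a stricter filter (5 CPM in 3 libraries), 2 genotypes only, a replicate block, a minimum fold of 1.5, each library left out, and WT 3 with V 3 left out. The code was tested on simulated data. The correlation of Bnc1 with mesothelial markers was tested with 100000 permutations. Intervals of counting error cover counting only, as the reads carry no molecular identifiers in the labels.

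The members and gene lists were chosen with earlier results of these data known. Named genes were the members, Tet1, up to 4 called genes a list or its 2 most abundant members, the 5 most and 3 least similar genes to each basonuclin, the neighbours and the leading markers. Rb1, Pou5f1, Mael, Aldh1a2 and Krt8 were named after their values were seen. No pair of libraries was identical, and counts correlated (Spearman) at 0.884 to 0.917 in a genotype and 0.878 to 0.918 across genotypes. Promoter windows come from RefSeq on GRCm38.p6 (both genes matched) and gene models from GENCODE M21, which gave a length for 91.9% of tested genes.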

Additional observations from a re-analysis of the deposited data

How the results depend on the processing

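The Bnc2 values kept their sign in all alternatives run, except in V relative to WT, which ran from -0.78 to 0.02 when 1 library was left out. These are descriptions, as Bnc2 was chosen on the same values. Bnc1 was called in no alternative. Its differences between mutants changed sign: HxD over KO ran from -0.34 to 0.38, V over KO from -0.42 to 0.44 and V over HxD from -0.39 to 0.37 with 1 library left out, and without WT 3 and V 3 the V values were -0.42 over KO and -0.39 over HxD. The cause was not tested.

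Counts of called genes moved more. Against 32 in KO, 5 in HxD and 0 in V by edgeR, DESeq2 called 233, 225 and 83, and edgeR without a filter 148, 67 and 32. The stricter filter gave 14 in KO and 1 in HxD, 2 genotypes alone 12 and 2, the fits without WT 3 and V 3 11 and 2, and a minimum fold of 1.5 gave 6 and 1. Leaving out 1 library gave 15 to 95 in KO, 1 to 47 in HxD and 0 to 10 in V. Over the 3 comparisons with WT, the arrest list had 0 calls, against 3 by DESeq2, 1 with no filter and 0 to 1 with a library left out. The meiotic list had 1, against 3 by DESeq2, 6 with no filter, 0 with the stricter filter, 0 without WT 3 and V 3 and 0 to 4 with a library left out. The spermatogonial list had 1, against 4 by DESeq2, 3 with no filter and 1 to 2 with a library left out. The polymerase I list had 0 in all. Of the 5 genes most like Bnc2, 2 were shared by Spearman's rho and 4 with a pseudocount of 0.25.

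Replicate numbers did not pair the libraries: deviations of the 18 same-numbered pairs correlated at -0.0747 to 0.0949, and 4 of 12 libraries correlated best with their own number. The replicate block gave 104 calls in KO, 45 in HxD and 8 in V, 1 in the arrest list and 4 in the meiotic list. Bnc1 was then -0.64, -0.69 and -0.61 and Bnc2 -2.01, -1.16 and -0.50 in KO, HxD and V relative to WT. With 3 libraries per genotype, the spread between libraries pooled over the genotypes, not counting error, sets the precision for both genes.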
